A study of Mus musculus with 8 samples.

Results

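Cytosolic ribosomal protein genes were examined in mouse RNA from 8 Affymetrix mouse expression arrays, 4 labelled Exp and 4 labelled Ctrl. Members were the probe sets (each the array's summary reading of a transcript) for which the platform annotation names a single gene whose symbol is Rpl or Rps followed by a digit, without the Rps6k kinases and without pseudogenes. This gave 102 of 45037 probe sets, for 47 genes: 24 of the large subunit, 22 of the small subunit, and Rps19bp1, a binding partner of Rps19 that is no ribosome subunit but fits the rule. A further 109 probe sets name a ribosomal protein gene together with other genes or pseudogenes and were not used. The labels give no treatment, genotype, age or strain for either group, and they name the trigeminal ganglion in one field and brain with adrenal medulla in another. Nothing states that the numbers 1 to 4 stand for separate animals, so the p-values measure only the spread between arrays, which may be technical.

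The ribosome translates mRNA into protein, with a small subunit that holds the mRNA and reads its codons and a large subunit that joins the amino acids. Each ribosome holds a single copy of nearly every ribosomal protein, so their genes are transcribed at high and matched levels in growing cells, and in neurons the pool of ribosomes sustains large cell bodies and long axons. Most of these mRNAs begin with a cytosine and a run of pyrimidines, the 5′ terminal oligopyrimidine (TOP) tract, through which mTOR signalling controls their translation.

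Start-site sequence was not used in choosing the genes. Promoters from RefSeq (GRCm38.p6, 250 bases before to 50 after each annotated start) matched 40 of the 46 genes that encode ribosomal proteins, with 48 start sites in all. A C at the annotated start followed by 4 pyrimidines was found in 7 of the 48 (14.6%), against 2.51% of all 32851 promoters of the table and 2.21% of those of protein-coding genes. These 7 are shown from 10 bases before to 20 after the start, 5′ to 3′ on the gene's strand, with the tract in capitals.

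Rps6: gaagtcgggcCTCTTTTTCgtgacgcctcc
Rps10: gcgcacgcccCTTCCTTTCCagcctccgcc
Rps18: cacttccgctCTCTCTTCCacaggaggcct
Rps27: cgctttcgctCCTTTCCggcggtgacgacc
Rpl14: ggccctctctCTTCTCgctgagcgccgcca
Rpl35: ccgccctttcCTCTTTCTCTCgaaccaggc
Rpl38: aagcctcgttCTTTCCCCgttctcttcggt

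They lie at chr4:86857348-86857377 (minus strand) for Rps6, chr17:27635225-27635254 (minus) for Rps10, chr17:33955646-33955675 (minus) for Rps18 and chr3:90213629-90213658 (minus) for Rps27. The others lie at chr9:120571507-120571536 (plus) for Rpl14, chr2:39005112-39005141 (minus) for Rpl35 and chr11:114668570-114668599 (plus) for Rpl38. When such a tract could begin anywhere from 5 bases before to 20 after the annotated start, a window chosen after the data were seen, 62.5% of the member promoters held one, against 34.6% of all promoters.

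The core motif of ETS family factors such as GABP, CCGGAAG on either strand, was present in 19 of the 48 member promoters (39.6%), against 8.86% of all promoters and 11.6% of those of protein-coding genes. Among the 19 it lay on either strand and on both sides of the start, for example on the opposite strand in Rps7 and after the start in Rpl11. It is shown in capitals for 4 of them, picked after their signals were seen. Those signals are described later, as are those of others among the 19. In these 4 it lies on the gene's own strand upstream of the start.

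Rps6: taatctacgcCCGGAAGtaacgcccct
Rps25: acccattgccCCGGAAGtactctctcg
Rpl41: agtaaggcagCCGGAAGtcgctgtctc
Rpl37: ccaagacccgCCGGAAGtagtttcctg

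These windows are chr4:86857442-86857468 (minus) for Rps6, chr9:44407631-44407657 (plus) for Rps25, chr10:128549208-128549234 (minus) for Rpl41 and chr15:5116580-5116606 (plus) for Rpl37. Other motifs stood closer to the background. The SP1 core GGGCGG was in 24 of the 48 member promoters, against 35.7% of all promoters and 46.2% of protein-coding ones. A YY1-like GATGGCG was in 6.25%, against 3.49% of all promoters, and the TATA box TATAAA in 10.4%, against 13.6%. All were searched on both strands and matches of different motifs may overlap. A match describes these letters in this window and is not evidence that a factor binds there.

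**Figure D1:**
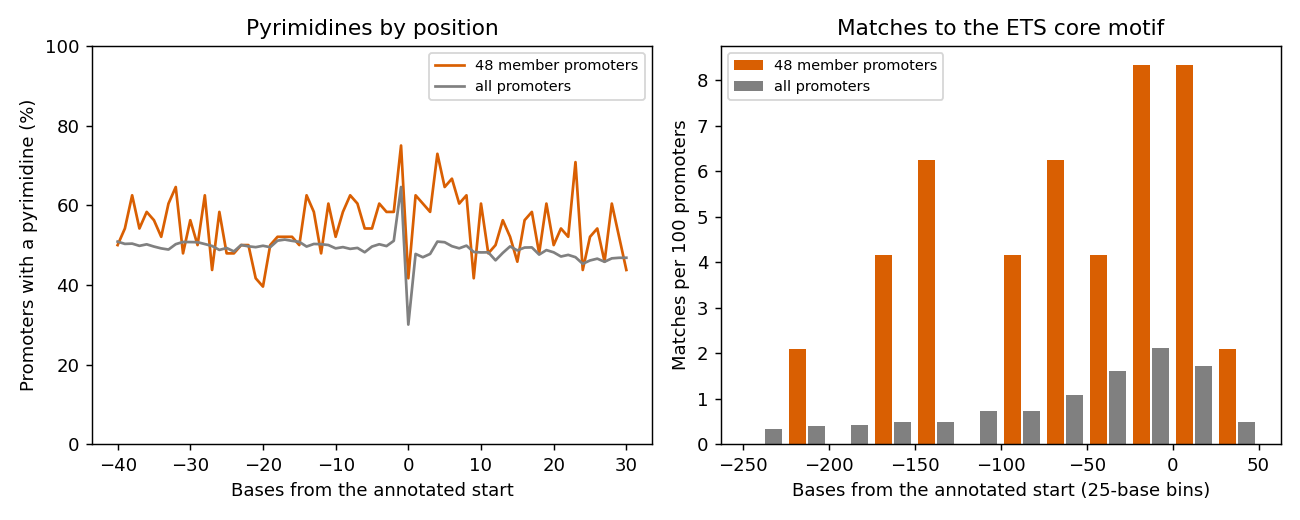
Sequence features at the annotated starts of the member genes. Left, share of promoters (%) with a C or T at each position, for the 48 member promoters and for all promoters; right, matches to the ETS core motif per 100 promoters in 25-base bins. Member promoters have more pyrimidines just after the start than all promoters (72.9% against 50.9% at offset 4), and the motif's fullest member bins lie on both sides of the start.

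As a check on the tissue, 9 of 9 sensory neuron markers on the array passed the filter on low signals described below, and their summed deposited signal was 260400 to 294700 in Exp arrays and 253000 to 266400 in Ctrl arrays. Of the adrenal medulla markers 4 of 5 passed, with Dbh below the filter, and of the central nervous system markers 3 of 5, with Gfap and Slc17a7 below it. Skeletal muscle markers varied most, from 2745 to 55070 summed signal in Exp and from 4377 to 8261 in Ctrl. The 7 muscle probe sets tested were all higher in Exp, with a median Exp minus Ctrl of 0.77 log2 units. Their median deviation from their 8-array means was -0.14, 0.82, 2.43 and -1.23 in Exp 1 to Exp 4. In Ctrl arrays it lay between -0.65 and -0.26. Of 13 Schwann and satellite glia probe sets 11 were lower, with a median of -0.24, and 0 of either list were called. An unadjusted limma p under 0.05 was reached by 2 muscle probe sets, higher in Exp (2.18% of all tested were). It was reached by 3 glia probe sets, lower in Exp (2.5% of all tested were). Of 7 erythroid probe sets 4 were lower in Exp and 3 higher, with a median of -0.18, and 0 were called. The summed deposited signal of the erythroid markers was 99900 to 117800 in Exp and 87080 to 107000 in Ctrl. Among the erythroid probe sets, a probe set of the embryonic globin Hbb-bh1, which had 2 tested, had the smallest p, at -0.88 (SE 0.21, limma unadjusted p = 0.00235, adjusted p = 0.865), with groups that did not overlap. Probe sets of Hbb-y, of which 3 were tested, included differences of 0.09 (SE 0.09) and -0.18 (SE 0.11). The part of tissue makeup in the members' values was not tested. The deposited signals had a trimmed mean of 2500 on every array, and the number of arrays limits the precision of each comparison.

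The ribosomal protein transcripts gave some of the brightest signals on the arrays, and they differed little between Exp and Ctrl. Of the 102 probe sets, 94 passed the filter (a mean of log2(signal + 16) at or above the 40th percentile, a signal of about 333), for 45 genes, and 50 of these had a mean above 14. On this log2 scale, used for all values that follow unless deposited signals are named, the 94 probe sets averaged between 8.64 (Rpl39l) and 17.01 (Rps18). Levels of different probe sets also reflect their oligonucleotides and are not ranked as amounts of mRNA. Just inside the filter lay Rpl39l (8.64) and a probe set of Rpl27a (8.65), and just outside it a probe set of Rps3 (8.39) and one of Rps24 (7.88). The 8 members below it read Rpl3l, the striated muscle paralog of Rpl3 (mean 6.30), Rps16 (5.47), and further probe sets of Rps18, Rps24, Rps3 and Rps4x, genes whose other probe sets passed.

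In limma, fitted to all 27022 probe sets that passed and adjusted by Benjamini-Hochberg at a 5% false discovery rate, 0 of the 94 member probe sets were called, against 0.0037% of all tested probe sets. Their adjusted p-values were all 0.999 (limma, n = 4 per group). An unadjusted p under 0.05 was reached by 1 member higher in Exp (1.06%, against 2.18% of all tested) and by 2 lower in Exp (2.13%, against 2.5%), so by 3.19% in either direction, against 4.69% of all tested. In 1 of the 94 the 4 Exp and 4 Ctrl values did not overlap (1.06%, against 2.34%), and 1 ranged over more than 2 log2 units across the arrays (1.06%, against 2.26%). None of these shares stood above the background. For 87 members (92.6%, against 93.5% of all tested) the 95% confidence interval of Exp minus Ctrl lay inside a doubling and a halving, and for 78 (83.0%, against 66.0%) it lay inside 1.5-fold in either direction. These background shares were not matched to the members for signal level.

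Small as they were, the estimates lay mostly on one side. Exp minus Ctrl was below 0 for 75 of the 94 probe sets (79.8%), against 51.6% of all tested. The median of the members was -0.05 log2 units (quartiles -0.11 and -0.02), against -0.01 over all tested probe sets. Large subunit probe sets had a median of -0.06, with 40 of 45 below 0, and small subunit probe sets -0.04, with 34 of 48 below 0. Without quantile normalization, a step that equalises the arrays' signal distributions, the member median was -0.02 and 57 of 94 were below 0. Without Ctrl 4 the median was likewise -0.02, with 65 of 94 below 0.

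The Ctrl arrays were not alike in the members' level. The median deviation of the 94 probe sets from their own 8-array means was 0.00, 0.00, -0.05 and -0.03 in arrays Exp 1 to Exp 4, against 0.02, -0.02, 0.00 and 0.11 in arrays Ctrl 1 to Ctrl 4. Ctrl 4 stood above the other 7 arrays, and Exp 3 was the lowest. Ctrl 4 held the highest of the 8 values for 39 of the 94 members (41.5%, against 14.0% of all tested probe sets) and the lowest for 0, while Exp 3 held the lowest for 25 (26.6%, against 13.6%). In the signals as deposited, the deviations were -0.05, 0.03, -0.02 and 0.03 in Exp 1 to Exp 4, against 0.01, -0.09, -0.01 and 0.13 in Ctrl 1 to Ctrl 4. There Ctrl 4 was again the highest, but Ctrl 2 was the lowest. Members took 1.98%, 2.09%, 1.98% and 2.05% of the summed deposited signal in Exp 1 to Exp 4, against 2.04%, 1.91%, 2.03% and 2.21% in Ctrl 1 to Ctrl 4.

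**Figure D2:**
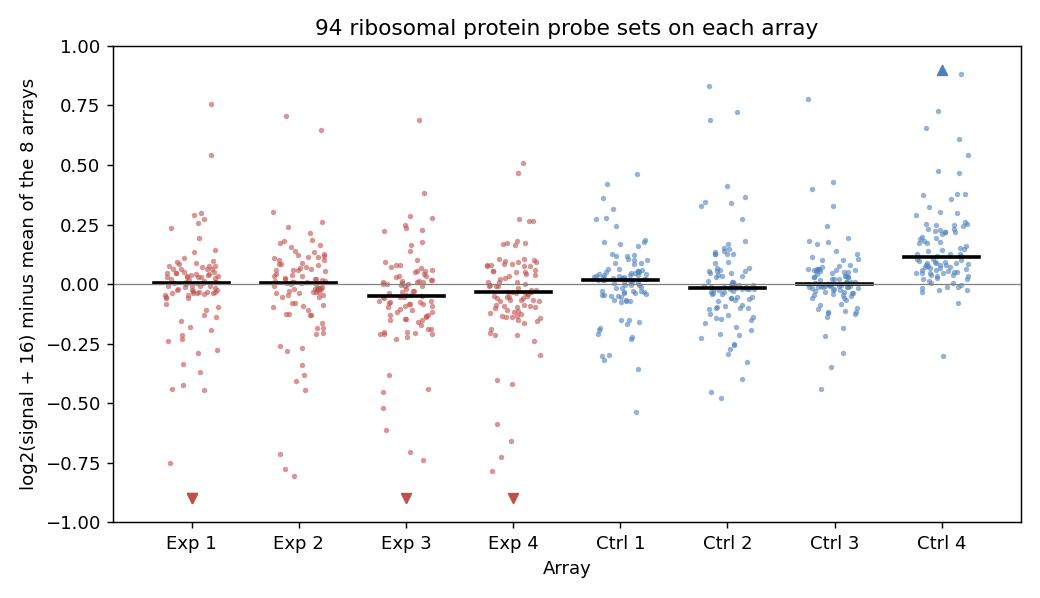
Deviation of each of the 94 tested ribosomal protein probe sets from its own mean over the 8 arrays, in log2(signal + 16), by array. Points are probe sets, black bars are medians, and triangles mark values beyond 0.9 in either direction; the median is 0.11 in Ctrl 4 and lies between -0.05 and 0.02 in the other arrays.

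The ratio of actin control probes at the 3′ and 5′ ends of the transcript is used as a sign of RNA integrity. It was 20.9, 25.5, 23.0 and 24.5 in Exp 1 to Exp 4, against 22.0, 20.3, 20.3 and 19.8 in Ctrl 1 to Ctrl 4. The 3′ end thus read far above the 5′ end on every array. Ctrl 4, where the members stood highest, thus had the lowest ratio. The 18S ribosomal RNA control read 13.9, 14.2, 14.5 and 14.3 in Exp 1 to Exp 4, against 14.3, 14.3, 14.7 and 14.7 in Ctrl 1 to Ctrl 4. The part of RNA integrity in the members' array values was not tested. In tissue RNA, fewer cells of a type and less of an RNA per cell cannot be told apart.

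Pairs of members had mostly positive correlations over the arrays. Between probe sets of different ribosomal protein genes, the median correlation of deviations from the group means over the 8 arrays was 0.17 (4277 pairs, 64.2% above 0), and between those with means above 14 it was 0.30 (1192 pairs). All such pairs share the same 8 libraries and their scaling, so this is a description with no test. No such correlation was computed between other genes, so it is not shown to be particular to the members. Probe sets above 14 also had small errors, with a median standard error of 0.09 for the 50 members and 0.10 for all 2450 probe sets in that range. Over all tested probe sets it was 0.15.

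**Figure D3:**
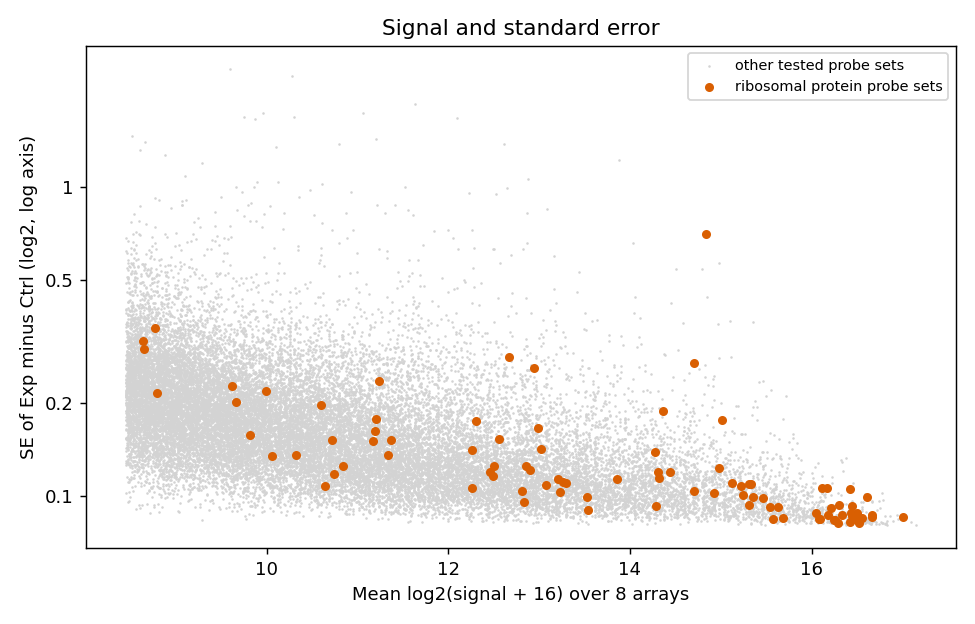
Standard error of Exp minus Ctrl (log2 units, log axis) against the mean log2(signal + 16) over 8 arrays for all 27022 tested probe sets, with the 94 ribosomal protein probe sets in orange. Members crowd at the bright end with standard errors near 0.09; the member with by far the largest error, 0.70, is a probe set of Rps9.

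A few genes of known place in the ribosome, most of them picked after their values were seen, give examples of small estimates; Rps9 and Rps10, described later, each held a probe set with a larger one. Rpl8, which lies beside the peptidyl transferase centre, differed by -0.03 (SE 0.08), and Rpl4, whose loop reaches into the exit tunnel for the new protein, by -0.06 (SE 0.09). At the entry channel for mRNA, Rps2 differed by 0.02 (SE 0.08) and the brighter tested probe set of Rps3 by -0.07 (SE 0.09). Rpl10a, a protein of the L1 stalk, differed by -0.02 (SE 0.08), and Rps14, at the platform where tRNA leaves, by -0.04 (SE 0.09) and -0.01 (SE 0.08) in 2 probe sets. The 95% intervals of Rpl8 reached from -0.22 to 0.15 and those of Rps2 from -0.17 to 0.19.

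Of 8 genes listed for known roles, Rps6 and Rps25 had the estimates farthest from 0, -0.60 and 0.45, and are described later. Rpl11, which with Rpl5 and 5S RNA restrains Mdm2 and so stabilises p53, differed by -0.0017 (SE 0.11). Rpl38, needed in mice for the translation of a subset of Hox mRNAs, differed by -0.01 (SE 0.11), and the X-linked Rps4x by -0.04 (SE 0.08). Rps19, the gene most often mutated in Diamond-Blackfan anaemia, a failure of red cell production, differed by 0.04 (SE 0.10). Of a list of 20 genes linked to that disease, 11 were members. Their 32 tested probe sets had a median of -0.05, with 23 below 0 and 0 called, and ran from -0.51 (Rps27) to 0.12 (Rpl35).

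Paralogs that replace or accompany a core protein in some tissues had no called probe set either. Rpl22l1, the paralog of Rpl22, had 12.3, 12.1, 12.5 and 12.5 in Exp 1 to Exp 4, against 12.5, 12.6, 12.6 and 12.8 in Ctrl 1 to Ctrl 4. The lowest 2 values were in Exp 1 and Exp 2, and the groups overlapped. It averaged 12.4 ± 0.21 in Exp and 12.6 ± 0.10 in Ctrl (SD, n = 4 each), a difference of -0.27 (SE 0.12, limma unadjusted p = 0.0613). Rpl22 itself differed by -0.07 (SE 0.17), -0.03 (SE 0.09) and -0.07 (SE 0.08) in its 3 probe sets. Whether the paralog differed from Rpl22 was not tested.

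Rps27l, the p53-responsive paralog of Rps27, held the only 1 of the 94 tested member probe sets with groups that did not overlap. That probe set, the middle of 3 in brightness, read 12.83, 12.78, 12.68 and 12.80 in Exp 1 to Exp 4, against 12.84, 12.83, 12.85 and 13.06 in Ctrl 1 to Ctrl 4. Exp 1 was nearly level with Ctrl 2, Ctrl 4 stood above the rest, and the difference was -0.12 (SE 0.10). Its other 2 probe sets differed by 0.01 (SE 0.11) and -0.11 (SE 0.15), with overlapping groups. Rps27 differed by -0.51 (SE 0.23, 95% interval -1.03 to 0.00), with 8.70, 9.34, 9.84 and 9.57 in Exp 1 to Exp 4, against 10.04, 9.79, 9.68 and 9.99 in Ctrl 1 to Ctrl 4. Exp 1 was the lowest array, and Exp 3 lay within the Ctrl range.

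Of the other paralogs, Rpl7l1, a relative of Rpl7, differed by -0.12 (SE 0.14), -0.17 (SE 0.16) and -0.11 (SE 0.11) in 3 probe sets. The paralog Rpl39l, enriched in testis, differed by -0.42 (SE 0.32), with 7.58 in Exp 1 and 9.34 in Exp 2 as the lowest and highest of all 8 arrays. Rpl39 differed by -0.11 (SE 0.15). Rps4l, a relative of Rps4x on an autosome, differed by -0.40 (SE 0.18, limma unadjusted p = 0.0517), with 10.8, 11.4, 11.3 and 10.6 in Exp 1 to Exp 4, against 11.5, 11.3, 11.4 and 11.5 in Ctrl 1 to Ctrl 4. Exp 1 and Exp 4 lay well below every Ctrl array, Exp 3 just below the lowest of them and Exp 2 within their range.

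**Figure D4:**
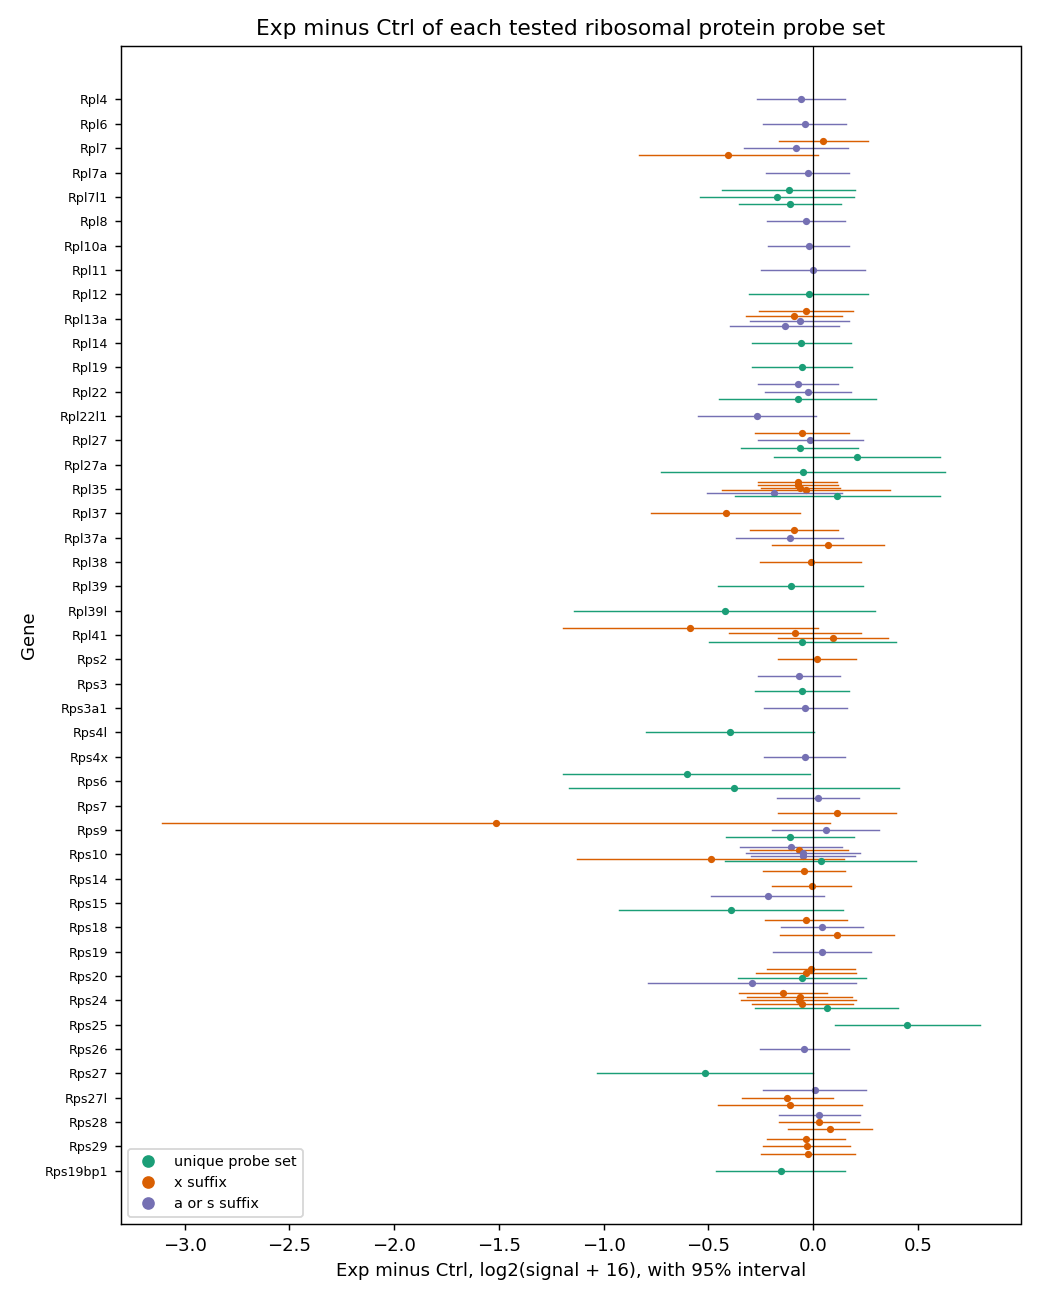
Exp minus Ctrl (log2 units) of the 94 tested probe sets by gene, large subunit above and small subunit below, with Rps19bp1 last. Points are estimates, lines are 95% intervals, and colours give the class of probe set by its name (unique, x, or a or s); most estimates lie near 0, and 1 probe set of Rps9 at -1.51 stands far from the gene's other 2.

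Most genes with several probe sets had estimates within 0.5 log2 units of each other, and 3 did not. For the 22 members with 2 or more tested probe sets (71 probe sets), the spread of Exp minus Ctrl within a gene, highest minus lowest, had a median of 0.16 log2 units, against 0.20 for 5736 other genes. The spread was under 0.1 in 8 genes and over 0.5 in 3. Over the 94 pairs of probe sets of 1 gene, deviations from the group means had a median correlation of 0.41, against 0.15 for pairs in other genes. The other genes were not matched to the members for signal level, here or for the spread. All estimates were below 0 in 10 of the 22 genes and above 0 in 2 (Rps7 and Rps28), and 10 genes held both signs. By pairs, 66 of the 94 (70.2%) had estimates of the same sign, against 55.0% of pairs in other genes. The 3 probe sets of Rps29 lay within 0.01 of each other (-0.03 to -0.02), those of Rps28 between 0.03 and 0.08, and those of Rpl13a, 4 in number, between -0.14 and -0.04.

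Probe set names end in a letter that marks their design. Of the 102, 32 were designed as unique, 40 carried x, for probes that may also bind other transcripts, and 30 carried a or s, for several transcripts of a gene or of a family. Ribosomal protein genes have many processed pseudogenes, and signals of x and s probe sets cannot be assigned with certainty to the gene they name. The medians of Exp minus Ctrl were -0.07 for 26 tested unique, -0.05 for 38 x and -0.04 for 30 a or s probe sets.

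Rps9, a protein of the small subunit that supports accurate decoding, showed the largest disagreement. Its x probe set had deposited signals of 47431, 46625, 5927 and 6507 in Exp 1 to Exp 4, against 40032, 49361, 49303 and 57624 in Ctrl 1 to Ctrl 4. Exp 3 and Exp 4 lay far below all other arrays, and Exp 1 and Exp 2 inside the Ctrl range. The difference was -1.51 with an SE of 0.70 (limma unadjusted p = 0.0601, adjusted p = 0.999), from means of 14.1 ± 1.69 in Exp and 15.6 ± 0.21 in Ctrl (SD, n = 4 each). It was -0.996 without Exp 3 and -1.05 without Exp 4.

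The gene's other probe sets did not show these low values. For its s probe set the deposited signals were 9111, 9681, 11185 and 8516 in Exp 1 to Exp 4, against 8847, 8923, 9164 and 10494 in Ctrl 1 to Ctrl 4, a difference of 0.06 (SE 0.11). Here Exp 3 was the highest of all arrays. For its unique probe set the signals were 905, 1146, 959 and 1109 in Exp 1 to Exp 4, against 970, 1044, 1050 and 1285 in Ctrl 1 to Ctrl 4, a difference of -0.11 (SE 0.13). Among the 4522 tested probe sets with a mean above 13, only 2, the Rps9 x probe set included, had a range over the arrays as wide as its own (3.26 log2 units, a ratio of 9.72 between the highest and lowest deposited signal). The median deviation of the muscle markers was 2.43 in Exp 3 and -1.23 in Exp 4, and the actin ratios of both, 23.0 and 24.5, lay above every Ctrl array. Exp 2, whose Rps9 x signal lay inside the Ctrl range, had the highest ratio of all arrays, 25.5. The part of tissue makeup or RNA integrity in the Rps9 values was not tested.

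In Rps6, the ribosomal protein phosphorylated by S6 kinase downstream of mTOR, the same arrays were low in both probe sets within Exp. The brighter probe set had deposited signals of 8319, 4568, 9552 and 4414 in Exp 1 to Exp 4, against 8325, 8820, 10671 and 11545 in Ctrl 1 to Ctrl 4. Exp 2 and Exp 4 lay below every Ctrl array, Exp 1 just below the lowest of them and Exp 3 inside their range. The difference was -0.60 (SE 0.26, 95% interval -1.19 to -0.02, limma unadjusted p = 0.0454, adjusted p = 0.999), and the estimate was -0.45 without Exp 2 (unadjusted p = 0.123 in limma) and -0.44 without Exp 4 (unadjusted p = 0.124).

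The dimmer probe set of Rps6 had 516, 252, 531 and 279 in Exp 1 to Exp 4, against 299, 653, 394 and 637 in Ctrl 1 to Ctrl 4. Exp 2 and Exp 4 were again the low Exp arrays, but Ctrl 1 was nearly as low, and the difference was -0.38 (SE 0.35). Exp 2 and Exp 4 also had the highest actin 3′/5′ ratios, 25.5 and 24.5. The part of RNA integrity in the Rps6 values was not tested.

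Rps25, a small subunit protein used by some viral and cellular mRNAs for initiation without a cap, was the member with the smallest unadjusted p. It read 12.76, 12.70, 12.66 and 13.03 in Exp 1 to Exp 4, against 12.73, 12.24, 12.12 and 12.26 in Ctrl 1 to Ctrl 4. Ctrl 1 lay within the Exp range and the other 3 Ctrl arrays below it. Means were 12.8 ± 0.17 in Exp and 12.3 ± 0.27 in Ctrl (SD, n = 4 each), a difference of 0.45 (SE 0.15, 95% interval 0.10 to 0.79, limma unadjusted p = 0.0163, adjusted p = 0.999). This was the only single-name probe set of the gene, so no second one could be set beside it.

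Rpl37, a zinc finger protein of the large subunit, had the next smallest p. Its dim x probe set read 9.52, 9.62, 9.29 and 9.98 in Exp 1 to Exp 4, against 9.99, 9.82, 10.21 and 10.06 in Ctrl 1 to Ctrl 4. Exp 4 lay inside the Ctrl range and the other 3 Exp arrays below it. The difference was -0.42 (SE 0.16, limma unadjusted p = 0.0267, adjusted p = 0.999).

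Rpl41, which encodes the shortest of the ribosomal proteins, had 4 tested probe sets with a spread of 0.68. The brightest, an x probe set, had deposited signals of 22426, 31893, 19769 and 16024 in Exp 1 to Exp 4, against 22517, 34875, 28675 and 50301 in Ctrl 1 to Ctrl 4. Ctrl 4 was far the highest and Exp 4 the lowest, and the groups overlapped. Its difference was -0.59 (SE 0.27), and -0.39 without Ctrl 4. The other 3 differed by -0.09 (SE 0.14), 0.10 (SE 0.12) and -0.05 (SE 0.20).

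In Rps10, a protein near the mRNA entry site that is ubiquitinated when ribosomes collide, 1 of 6 probe sets stood apart. For the x probe set in question the deposited signals were 6482, 7300, 3822 and 4766 in Exp 1 to Exp 4, against 6373, 10781, 5149 and 10353 in Ctrl 1 to Ctrl 4, a difference of -0.49 (SE 0.28). Ctrl 2 and Ctrl 4 were high and Exp 3 low. The other 5 lay between -0.11 and 0.04. Rpl7 and Rpl35 had spreads of 0.45 and 0.30. In Rpl7 the dimmest x probe set differed by -0.41 (SE 0.19) and the other 2 by -0.08 and 0.05, and in Rpl35 the 6 estimates ran from -0.19 to 0.12.

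**Figure D5:**
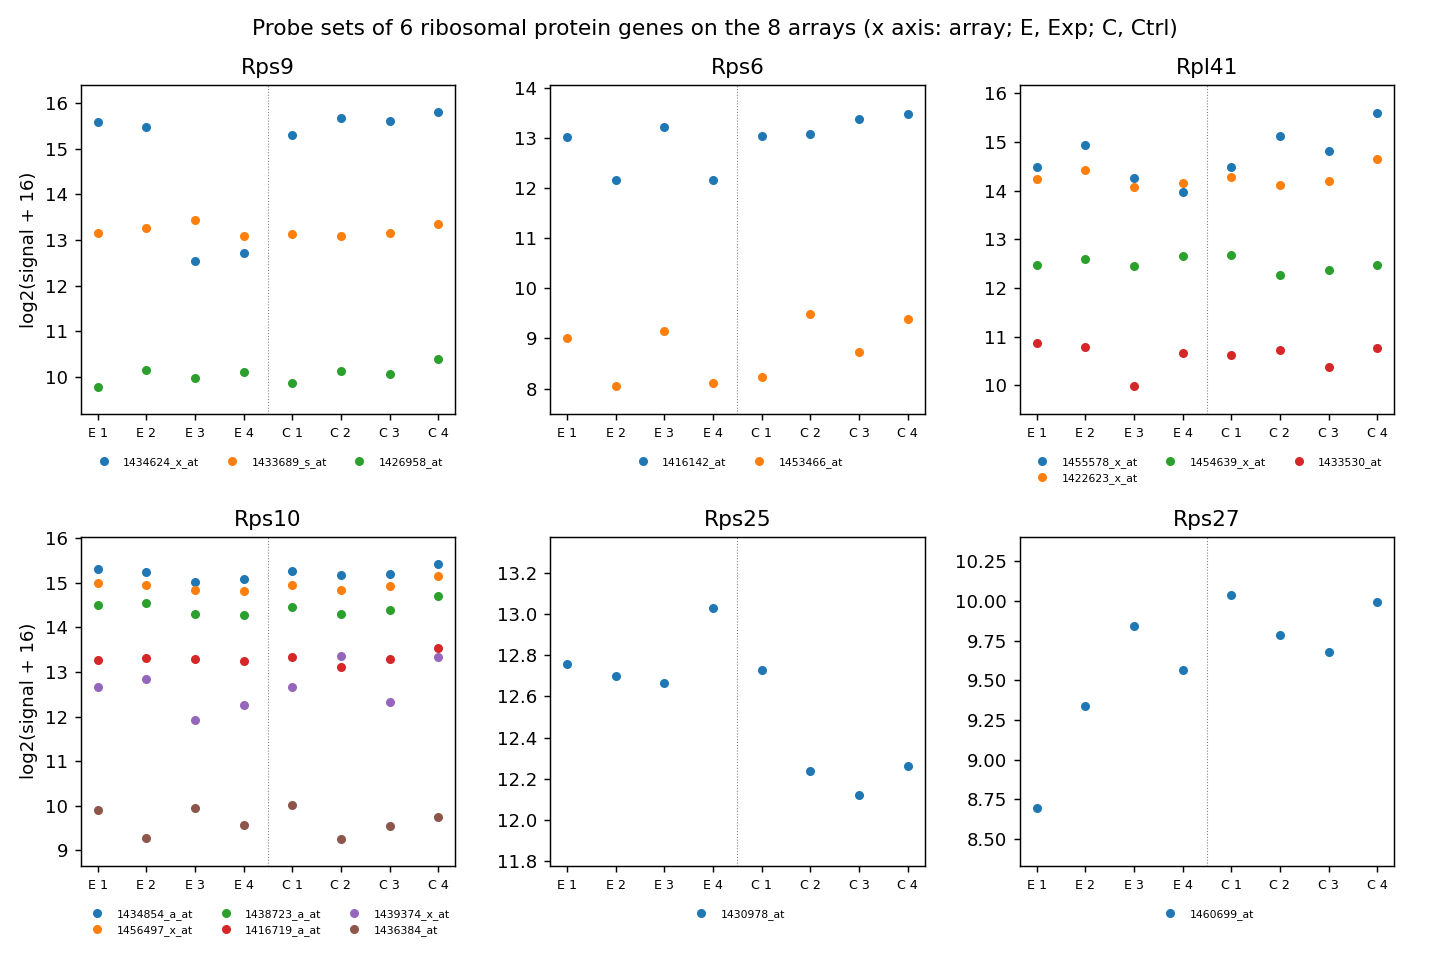
Log2(signal + 16) of every tested probe set of 6 genes on each array, Exp arrays on the left and Ctrl arrays on the right of each panel, with colours for probe sets. In Rps9 the brightest probe set is at 12.5 and 12.7 in Exp 3 and Exp 4 and between 15.3 and 15.8 elsewhere, while its other 2 stay level; in Rps6 both probe sets are lowest within Exp in Exp 2 and Exp 4.

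Among the other genes with the smallest p on the higher side, Rpl27a of the large subunit differed by 0.21 (SE 0.17) and -0.05 (SE 0.30) in 2 probe sets. Rps18, in the head of the small subunit, differed by 0.11 (SE 0.12), 0.04 (SE 0.09) and -0.03 (SE 0.09), and Rps7 by 0.11 (SE 0.12) and 0.02 (SE 0.09). The probe set of Rps3 just outside the filter had deposited signals of 300, 274, 294 and 219 in Exp 1 to Exp 4, against 506, 366, 387 and 297 in Ctrl 1 to Ctrl 4, and in the fit without a filter differed by -0.54 (SE 0.18, limma unadjusted p = 0.0165). After quantile normalization its highest Exp value was 8.28 and its lowest Ctrl value 8.30. In that fit, too, 0 members were called.

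Genes that work with the ribosome were examined in 5 lists, and 0 of their probe sets were called in either direction. Each gene named from them is given by its probe set with the smallest p in that direction. Other probe sets of these genes are not described. Of the ribosomal proteins named outside the rule, 4 were tested, of which 3 lay below 0. Fau, the ubiquitin-like fusion precursor of Rps30, differed by -0.22 (SE 0.15) and the stalk protein gene Rplp0 by -0.14 (SE 0.16). Mitochondrial ribosomal proteins, encoded in the nucleus for the ribosome inside mitochondria, had 97 of 142 probe sets (76 genes) below 0 and a median of -0.05. Of these, a probe set of Mrps6 differed by -0.25 (SE 0.10) and a probe set of Mrpl21 by 0.37 (SE 0.16), each gene having 2 tested.

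Translation factors and other mRNAs with TOP tracts had 26 of 39 probe sets below 0 and a median of -0.03. Among them Eif3k, a subunit of initiation factor eIF3, differed by -0.31 (SE 0.12). A probe set of Eef1d, of the elongation factor exchange complex, differed by 0.30 (SE 0.18), with 3 of the gene tested. Ribosome assembly and RNA polymerase I genes had 28 of 48 below 0 and a median of -0.02. A probe set of Dkc1, the pseudouridine synthase, was at -0.40 (SE 0.20). A probe set of Nmd3, an export adaptor of the large subunit, was at 0.50 (SE 0.30), and both genes had 3 tested. S6 kinases and mTOR genes had 26 of 36 below 0 and a median of -0.05. A probe set of Rictor, of mTOR complex 2, was at 0.25 (SE 0.11). A probe set of Eif4ebp1, a translation repressor that mTOR inactivates, was at -0.36 (SE 0.20), and both genes had 3 tested.

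After quantile normalization, Ctrl 4 was the highest array in 2 of the 5 other lists, the mitochondrial and the assembly genes. In Ctrl 4 the median deviation was 0.12 for mitochondrial ribosomal proteins and 0.12 for assembly genes. It was 0.04 for translation factors and TOP mRNAs and 0.03 for S6 kinase and mTOR genes. Exp 1 was higher among translation factors (0.06), and Ctrl 3 was higher among S6 kinase and mTOR genes (0.08) and ribosomal proteins outside the rule (0.18, against 0.06 in Ctrl 4). In the signals as deposited, Ctrl 4 was also the highest array among translation factors and TOP mRNAs (0.07, against 0.005 in Exp 1). In Exp 3, where the cytosolic members were lowest after quantile normalization, the mitochondrial list was at 0.03 and the assembly list at 0.09. The members themselves were split there, with -0.08 for those with means above 14 and 0.01 for those at or below 14. Their x probe sets were at -0.09 and their unique probe sets at 0.03. Differences between the lists were not tested.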

How the data were processed

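The deposited values are linear intensity values, 1 per probe set on each of 8 arrays. The authors' software and summary method: not given in the sources used here. With 2% of probe sets trimmed at either end, every array averages 2500, as global scaling gives. Such scaling removes differences in total signal, so each difference is relative to the bulk of transcripts. All columns were mapped to samples, and 64 control probe sets were left out of the tests.

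The deposited intensities were taken as log2(signal + 16) and quantile normalized, and probe sets with a mean under the 40th percentile were left out. The comparison, Exp minus Ctrl, used lmFit and eBayes of limma 3.58.1 in R 4.3.3 (two-sided). P-values of the 27022 tested probe sets were adjusted together by Benjamini-Hochberg. The pseudocount understates changes of dim probe sets. The fit was tested on simulated data. Symbols come from the platform annotation. Detection calls and scan dates were not used here.

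The members and lists were chosen with earlier results of these data known. Genes were named by rule: the 6 smallest p per direction, the 5 largest spreads between probe sets, paralog pairs, genes fixed by role, and up to 2 per direction in each companion list. Rpl8, Rpl4, Rps2, Rps14, Rpl13a, Rps29 and the Rps3 probe set below the filter were added after their values were seen. Same-numbered Exp and Ctrl arrays did not deviate together, with correlations of 0.02, 0.05, -0.07 and -0.12, so the number was no block in the fit. Alternatives were other pseudocounts, filters, normalizations, eBayes options, array weights, probe set subsets and leaving out each array. Figures were drawn with matplotlib 3.10.9.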

Additional observations from a re-analysis of the deposited data

Results flagged for a closer look

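In 130 groups of 4 arrays (probe sets of the named members and medians of the lists), 4 held 1 array set off from the other 3 by more than Dixon's test allows at the 95% level, where chance gives about 6.5. The Rps27l probe set with separate groups read 13.06 in Ctrl 4, against 12.83 to 12.85 in the other Ctrl arrays. For mitochondrial ribosomal proteins the array median was 0.116 in Ctrl 4, against -0.01 to 0.01 in the other Ctrl arrays. The same list stood at 0.0308 in Exp 3, against -0.03 in each of the other Exp arrays. For ribosome assembly and RNA polymerase I genes the median was 0.0948 in Exp 3, against -0.08 to -0.07 in the other Exp arrays.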

How the results depend on the processing

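With 4 arrays per group, and with no detection calls used here, dim probe sets are measured least well. No member was called under any of the alternatives run, and the member median stayed below 0 in each, within 1 SD of array medians (0.05) of its main value. It ran from -0.08 to -0.02 over the fits that left out 1 array. The share of members below 0 was 60.64% without quantile normalization, against 79.8% with it, and ran from 69.15% to 79.79% when 1 array was left out. The single call among all probe sets was lost (0 calls) without a filter, with a filter at the 60th percentile and with the replicate block, and leaving out 1 array gave 0 to 1. The replicate number pairs no samples by the check above, and the block changed no member call. Members lower in Exp at an unadjusted p under 0.05 numbered 4 with a pseudocount of 64, the 60th percentile filter or array weights, 7 with the largest pseudocount, 6 with median centring or trend and robust, 1 among unique probe sets, and 0 to 5 without 1 array. Without overlap between groups were 2 members with no filter, 3 with median centring, 0 among unique probe sets or the brightest per gene, and 1 to 6 without 1 array. Counts of both kinds are given without the share of all tested probe sets in the same alternative. They therefore cannot be read against a background, and groups separate more readily with 1 array fewer. The gap between the highest and lowest array median was 0.163, and it was 0.2146 without quantile normalization, 0.2519 with median centring and 0.07153 without Ctrl 4 (0.07153 to 0.1735 when 1 array was left out). The tract share was 62.5% with the wider window. Single probe sets, none of them called in any alternative, kept their sign in 969 recomputed values, and in 51 values the estimate changed sign. Medians of companion lists stayed in place in 88 and moved in 2. Each sign change that follows belongs to a single probe set of the gene named. The Rps9 x probe set at -1.51 and the brightest Rpl41 probe set at -0.59 changed sign in no alternative. Without quantile normalization the changed values were Rps4x (0.028), Rpl11 (0.0055), Rpl27a (0.016), Rpl10a (0.027), Rpl38 (0.042), Rps3 (0.012), Rps27l (-0.011) and Rps18 (0.065). With median centring they were the s probe set of Rps9 (-0.013), Rps19 (-0.025), Rps27l (-0.060) and Rps18 (0.016). With array weights they were Rpl11 (0.0058), Rpl27a (0.0055), Rpl38 (0.032), the unique probe set of Rpl41 (0.056), Rps27l (-0.017) and Rpl35 (0.0054). When 1 array was left out, ranges spanned 0 for Rpl10a (-0.043 to 0.0029), Rpl11 (-0.058 to 0.043), Rpl22 (-0.052 to 0.011), Rpl27a (-0.24 to 0.18), Rpl38 (-0.057 to 0.032), Rps19 (-0.020 to 0.10), Rps27l (-0.044 to 0.083), Rps3 (-0.086 to 0.0075), Rps7 (-0.013 to 0.041) and the s probe set of Rps9 (-0.010 to 0.12). They also did for Rpl35 (-0.097 to 0.28 and -0.14 to 0.088), Rpl41 (-0.16 to 0.022 and -0.15 to 0.14) and Rps10 (-0.12 to 0.028, -0.091 to 0.17 and -0.099 to 0.032). The median of translation factors and TOP mRNAs was 0.02 without quantile normalization and that of mitochondrial ribosomal proteins -0.11 with median centring. The causes were not tested.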
